A study of Mus musculus with 8 samples.

Results

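The matrix metalloproteinases, their tissue inhibitors, the ADAMTS proteases and the lysyl oxidases are the secreted and membrane-bound enzymes that cut, protect and cross-link the extracellular matrix. The genes were chosen by symbol alone: every Mmp gene with a number, Timp1 to Timp4, every numbered Adamts gene, Lox, and Loxl1 to Loxl4. The rule found 51 genes among the 38293 of the table, 23 Mmp, 4 Timp, 19 Adamts and 5 lysyl oxidase genes, and none of them was chosen on a measured value. They were described in RNA from cardiac ventricle, a mix of left and right, of 8-week-old mice. The 4 HET samples carry a deletion in 1 copy of Pkp2, written c.1755delA/WT in the series title and c.1755A/WT in the genotype label, and the 4 WT samples carry the WT/WT genotype. The labels give neither strain nor sex, do not say how the allele was made, and name no treatment. Nor do they state that each sample is a different animal, and p-values therefore cover only variation among these 8 samples, which may be technical.

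Matrix metalloproteinases are zinc-dependent proteases made as inactive precursors and activated by removal of a propeptide. The TIMPs bind active metalloproteinases and block them, and Timp3 also blocks several ADAMTS enzymes. ADAMTS enzymes cleave proteoglycans, procollagens and microfibril proteins, and lysyl oxidases oxidise lysines of collagen and elastin so that the fibres become cross-linked. In heart these enzymes are known mainly from fibroblasts, vessel cells and inflammatory cells, while Timp4 is known as a TIMP that is abundant in heart muscle. PKP2 mutations are known from arrhythmogenic cardiomyopathy, in which myocardium is replaced by fibrous and fatty tissue, and desmosomal protein degradation in that disease is the subject named by the series title.

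The deposited values are whole-number read counts per gene, with totals per library of 32397302 to 38611008 in HET and 38510257 to 41234883 in WT. Levels below are CPM, the counts scaled to a common library size, and levels of different genes are compared per kilobase of exon. Pkp2, the mutated gene, had 88.2 to 105.6 CPM in HET and 148.5 to 169.1 CPM in WT, and its log2 fold change of HET over WT was -0.74 (edgeR's quasi-likelihood test, adjusted p = 0.00376). It was the only gene of 14567 tested that passed an adjusted p of 0.05. Cardiomyocyte markers summed to 58134 to 60683 CPM in HET and 54227 to 58108 CPM in WT, ranges that do not overlap but nearly touch. Of the 6 markers, 5 were higher on average in HET. In edgeR 2 of the 6 had an unadjusted p under 0.05, against 6.38% of all genes. The groups of 1 of the 6 were separate, against 3.78% of all genes. Atrial markers summed to 463 CPM in HET 1 and 220, 259 and 261 CPM in HET 2 to 4, against 271 to 356 CPM in WT. Of these 5 markers, 2 were higher on average in HET. Only 2 had enough counts to be tested, and both had negative log2 fold changes. In edgeR 1 of these had an unadjusted p under 0.05, against 6.38% of all genes. What these sums contribute to the values below was not tested. Of the 51 genes, 38 had enough counts to be tested, and no change of theirs passed the test.

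The expressed repertoire was dominated by a few genes. Per kilobase of exon and averaged over the 8 libraries, Mmp15, a membrane-type metalloproteinase, had the highest level at 31.9 CPM per kilobase. Timp2 followed at 27.8, Timp3 at 24.9, Mmp2 at 18.9, Loxl1 at 17.7 and Adamts1 at 11.0 CPM per kilobase. Adamts7 at 7.18, Adamts10 at 6.10 and Timp4 at 6.02 CPM per kilobase came next. The 8 highest genes held 77.8% of the summed level of the tested genes, and the highest level was 637 times the lowest. No neighbouring pair in this order, of 37 pairs, had ranges over the 8 libraries that were separate. Compared within each library, 4 of the 37 pairs were in the same order in all 8, namely Timp3 above Mmp2, Timp4 above Loxl2, Adamts9 above Loxl3 and Adamts12 above Mmp12.

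**Figure D1:**
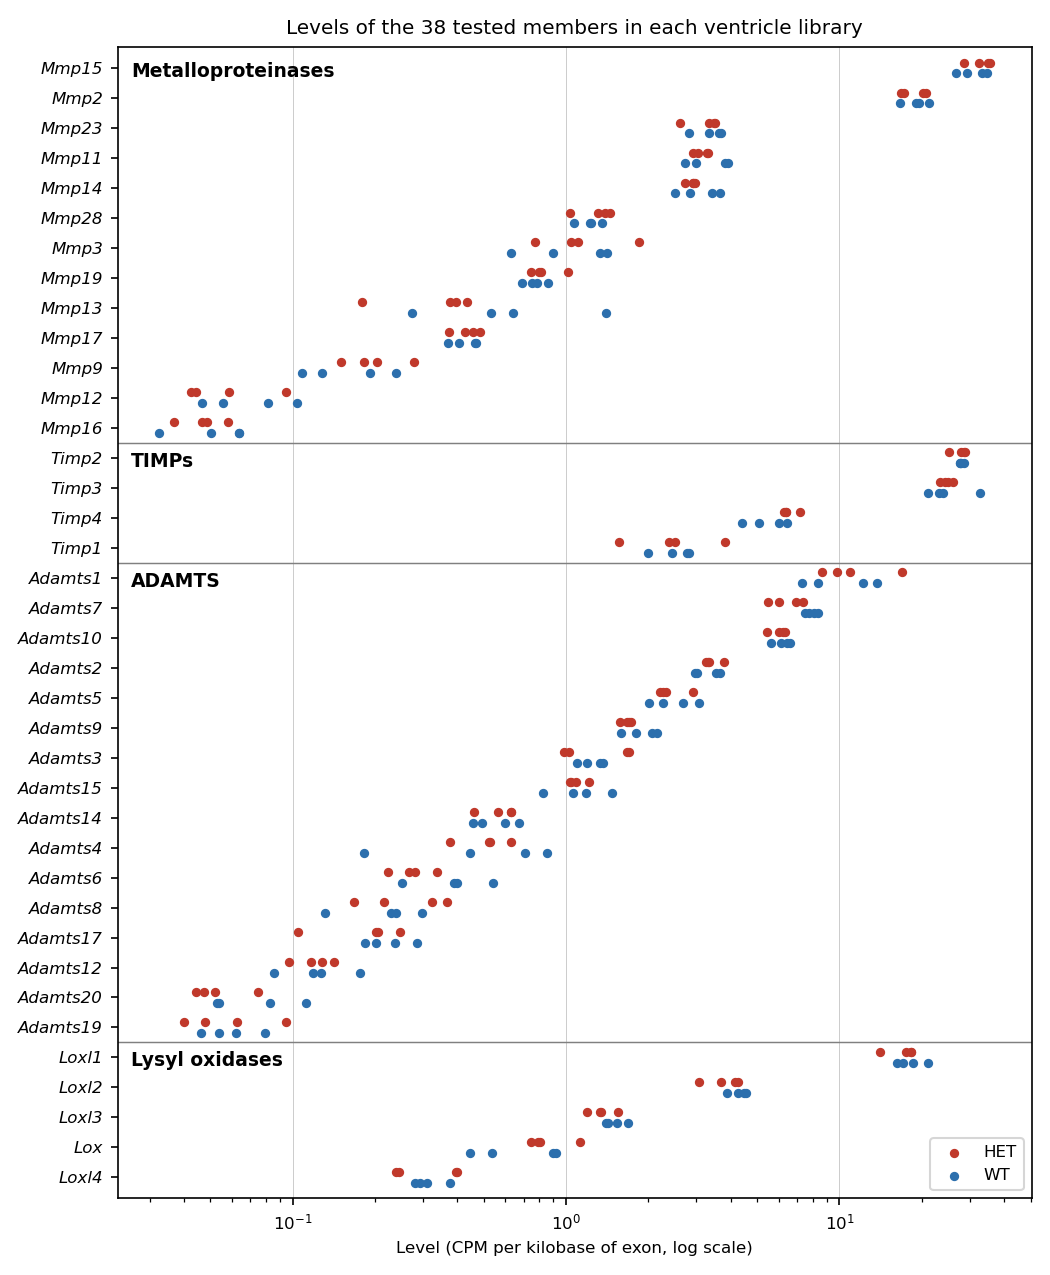
Level of each of the 38 tested genes in each library, in CPM per kilobase of exon on a log axis, with each point 1 library (HET red, above; WT blue, below) and the genes ordered by mean level within their family. Mmp15, Timp2, Timp3, Mmp2 and Loxl1 sit furthest right, and for most genes the HET and WT points cover the same stretch of the axis.

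Each family had its own leading members. Among metalloproteinases, Mmp15 held 49.1% of the summed level per kilobase and Mmp2, the constitutively made gelatinase, held 29.1%. Timp2 held 45.3% of the TIMP sum, Timp3 40.7%, Timp4 9.83% and Timp1 4.14%. Adamts1, a protease of aggrecan and versican, held 30.2% of the ADAMTS sum and Adamts7 held 19.7%. Loxl1, known for elastic fibres, held 72.9% of the lysyl oxidase sum and Loxl2 16.7%, whereas Lox itself held 3.23%.

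At the other end, 13 of the 51 genes had too few counts to be tested. Mmp1a, Mmp1b, Mmp7, Mmp10 and Mmp20 had 0 counts in all 8 libraries. A count of 0 allows up to 3 counts, which is 0.0721 to 0.0936 CPM depending on the library, and covers counting error only. The other 8 untested genes, Mmp8, Mmp21, Mmp24, Mmp25, Mmp27, Adamts13, Adamts16 and Adamts18, had at most 15 counts in any library. Mmp27 reached that count in WT 1 and summed to 67 counts over the 8 libraries, while Adamts13, the protease of von Willebrand factor, had 1 count in all.

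Many of the genes with few counts lie in a cluster on mouse chromosome 9. Between positions 7272514 and 7699585 of GRCm38, within 427.072 kilobases, lie 10 Mmp genes: Mmp13, Mmp12, Mmp1b, Mmp1a, Mmp3, Mmp10, Mmp8, Mmp27, Mmp20 and Mmp7. All 5 genes without a count belong to this cluster, and 3 of its members were tested, Mmp3, Mmp12 and Mmp13. The cluster holds the interstitial collagenases, stromelysins, matrilysin, the macrophage elastase Mmp12 and the tooth enamel protease Mmp20.

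The starts of these genes are shown because the cluster shares letters there that the selection by symbol did not use. RefSeq promoter windows for GRCm38.p6, 250 bases before to 50 bases after a gene's start, were found for 33 of the 51 genes, including all 10 of the cluster. The 18 genes without a window all lie outside the cluster, so their starts were not read. They include Mmp2, Mmp9, Lox, Loxl1, Loxl2 and Adamts7. Capitals mark matches to TGANTCA, the letters of an AP-1 site, and to TATAAA, the letters of a TATA box; each line is the 120 bases directly before the start, 5′ to 3′ on the gene's strand.
Mmp1a: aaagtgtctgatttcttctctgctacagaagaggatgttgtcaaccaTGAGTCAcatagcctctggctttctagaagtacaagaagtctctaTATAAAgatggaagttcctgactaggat
Mmp1b: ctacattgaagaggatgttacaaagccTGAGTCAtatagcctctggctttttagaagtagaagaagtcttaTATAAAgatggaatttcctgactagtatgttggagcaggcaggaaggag
Mmp10: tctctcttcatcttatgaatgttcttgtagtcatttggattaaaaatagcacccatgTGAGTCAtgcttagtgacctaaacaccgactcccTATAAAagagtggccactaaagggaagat
Mmp20: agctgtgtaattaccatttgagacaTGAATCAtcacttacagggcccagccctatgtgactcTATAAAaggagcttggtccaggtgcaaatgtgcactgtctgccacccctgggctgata
Mmp7: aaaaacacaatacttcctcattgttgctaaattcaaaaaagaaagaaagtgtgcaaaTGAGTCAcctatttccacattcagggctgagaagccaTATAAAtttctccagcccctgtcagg
Mmp3: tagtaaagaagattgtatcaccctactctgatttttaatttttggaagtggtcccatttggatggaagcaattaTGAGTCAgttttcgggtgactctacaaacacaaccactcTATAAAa
Mmp13: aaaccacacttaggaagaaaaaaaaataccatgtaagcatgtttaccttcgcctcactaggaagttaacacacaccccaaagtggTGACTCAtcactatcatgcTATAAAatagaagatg
The stretches are chr9:7464021-7464140 (plus strand) for Mmp1a, chr9:7388027-7388146 (minus) for Mmp1b, chr9:7502222-7502341 (plus) for Mmp10, chr9:7628111-7628230 (plus) for Mmp20, chr9:7691970-7692089 (plus) for Mmp7, chr9:7445702-7445821 (plus) for Mmp3 and chr9:7272394-7272513 (plus) for Mmp13.

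Some genes have several RefSeq windows, and a gene was counted where any of its windows held the motif. TGANTCA, which reads the same on both strands, was present in a window of 8 of the 10 cluster genes and of 0 of the 23 other matched genes, against 8.97% of all 27025 genes with a window. TATAAA on the gene's strand was in 8 of the 10 cluster windows and in 2 of the other 23, those of Mmp21 and Adamts1, against 9.77% of all genes and 15.7% where either strand counted. Both motifs were in the windows of the same 8 cluster genes, all but Mmp8 and Mmp27, and in 1.18% of all genes. TGANTCA began at position -95 to -35 from the start, and TATAAA began 19 to 48 bases downstream of it. TATAAA thus ranged from -58 in Mmp20 through -16 in Mmp13 and -7 in Mmp3 to 4, after the start, in Mmp12. Mmp7 and Mmp12 each have a further window that holds neither motif. The Mmp12 window with both motifs begins at 7347124, inside the gene annotated from 7344381. The 8 genes with both motifs ranged from 0 counts in Mmp1a, Mmp1b, Mmp7, Mmp10 and Mmp20 to 1.13 CPM per kilobase in Mmp3. The cluster genes are neighbours of the same family, and the stretches of Mmp1a and Mmp1b are alike around both motifs. They are therefore not independent cases to set against the share of all genes, and no test was made. A match is a description of these letters and shows no binding.

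Some leading genes outside the cluster are shown for contrast with these CG-poor starts, now with every CG dinucleotide in capitals and again as the 120 bases before the start.
Mmp15: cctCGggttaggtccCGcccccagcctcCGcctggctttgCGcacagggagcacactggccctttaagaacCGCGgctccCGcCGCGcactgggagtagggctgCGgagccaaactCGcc
Adamts1: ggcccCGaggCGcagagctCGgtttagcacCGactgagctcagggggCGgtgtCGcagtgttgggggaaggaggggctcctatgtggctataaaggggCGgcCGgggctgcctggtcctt
Timp4: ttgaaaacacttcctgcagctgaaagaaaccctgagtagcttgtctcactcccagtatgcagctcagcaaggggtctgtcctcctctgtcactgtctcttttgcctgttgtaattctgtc
These are chr8:95352176-95352295 (plus strand) for Mmp15, chr16:85803114-85803233 (minus) for Adamts1 and chr6:115252206-115252325 (minus) for Timp4. The stretch of Mmp15 holds 11 CG dinucleotides, that of Adamts1 holds 8 and that of Timp4 holds 0. Over the whole window, and averaged over windows where a gene has several, the median CG count was 1.25 in the cluster genes, 21 in the other matched genes and 7 over all genes. CG count and level did not run in parallel in every gene: Timp4 had 2 CG dinucleotides and 6.02 CPM per kilobase, whereas Mmp24 had 44 and Adamts18 had 22 with at most 3 and 2 counts in a library.

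**Figure D2:**
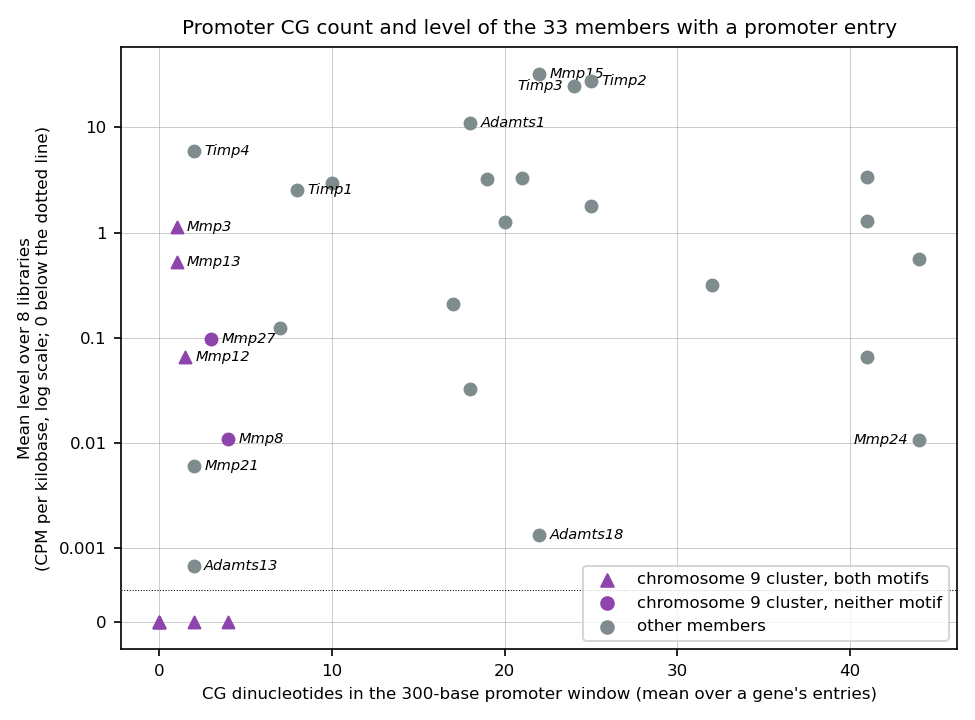
Mean level over the 8 libraries (CPM per kilobase of exon, log axis, with genes at 0 below the dotted line) against the number of CG dinucleotides in the 300-base RefSeq promoter window (mean over a gene's windows), for the 33 genes with a window; purple marks the chromosome 9 cluster and triangles mark genes with a window that holds both motifs. The cluster genes have mean counts of 0 to 4 CG dinucleotides, the other genes 2 to 44, and Timp4 stands among the other genes with 2.

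Between HET and WT, none of the 38 tested genes passed an adjusted p of 0.05, where 0.00686% of all tested genes did. At an unadjusted p under 0.05 there were 3, Adamts7 and Adamts6 lower and Timp4 higher, which is 3 of 38 against 6.38% of all genes. DESeq2 called 0 of the 38 (0.0892% of all genes) and limma-voom 0 (0.00686%). With the title digits as a covariate, 8 of the 38 had an unadjusted p under 0.05 in edgeR, against 4.95% of all genes, and 0 passed the adjusted threshold. In that fit WT 2, alone in its digits, adds nothing to the difference between HET and WT. The lowest adjusted p was 0.770 with edgeR's quasi-likelihood test and 0.353 with DESeq2. HET and WT values were separate for 1 of the 38, Adamts7, where 3.78% of all genes were separate in either direction and 2.08% with HET lower. The median log2 fold change was -0.04, with 16 positive and 22 negative, against a median of -0.0038 over all genes, of which 51.5% were negative. Of the 15 genes at 10 CPM or more, 11 were negative (73.3%, median -0.05), against 43.1% of the 8474 genes at such levels (median 0.01), a description with no test. By family the median was -0.03 for 13 Mmp genes, 0.01 for 4 Timp genes, -0.05 for 16 Adamts genes and -0.10 for 5 lysyl oxidase genes. Log2 fold changes of 28 of the 38 lay within 0.25 of 0, and 95% intervals of 35 held 0. Over all 14567 tested genes, 12356 lay within 0.25 of 0 and the intervals of 13637 held 0.

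**Figure D3:**
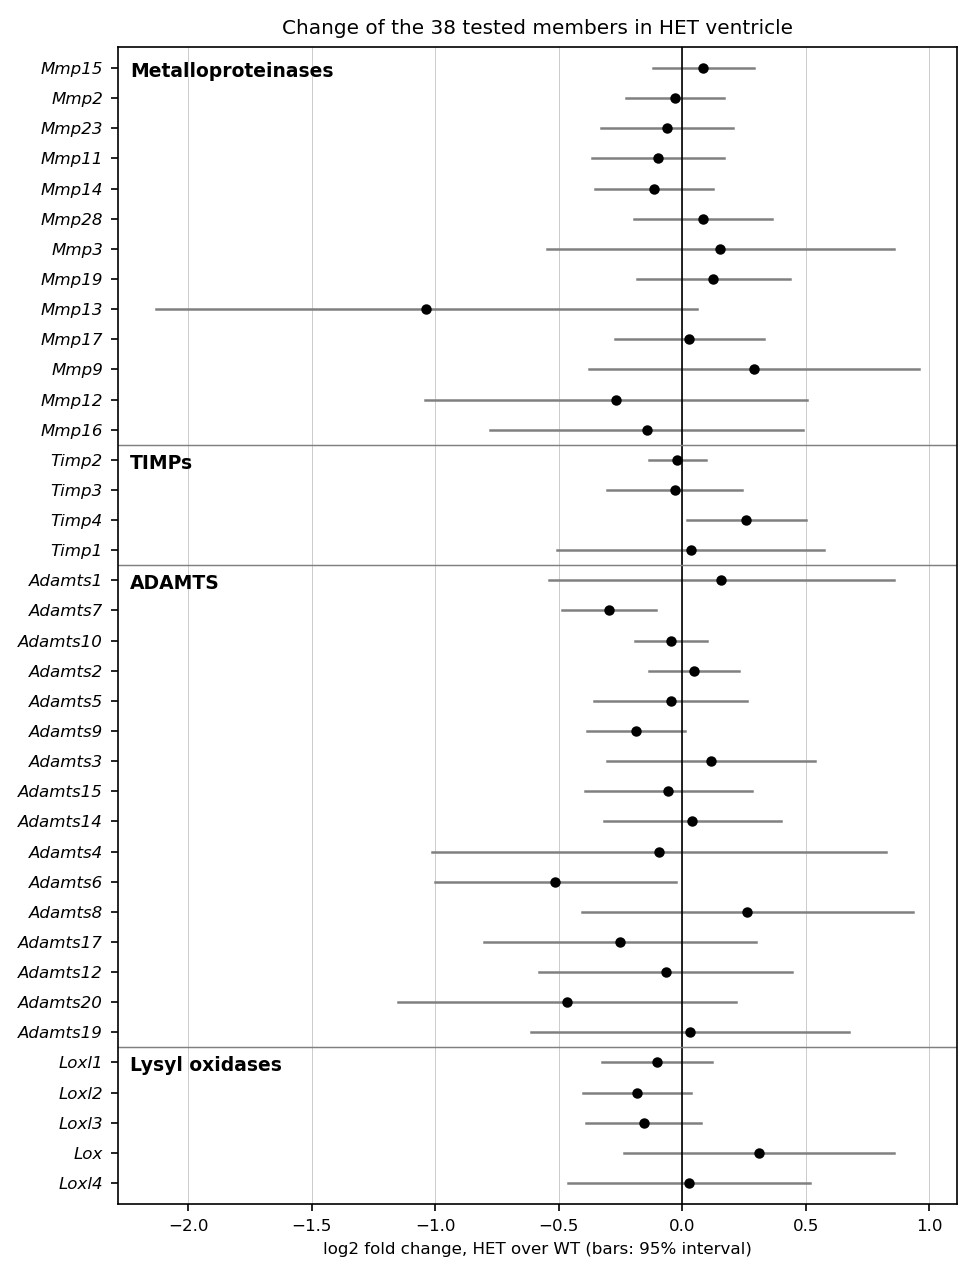
Log2 fold change of HET over WT for the 38 tested genes, by family and in order of level, with 95% intervals from edgeR's quasi-likelihood fit as bars. The intervals of 35 genes cross 0, those of Adamts7 and Adamts6 lie below 0 and that of Timp4 above it, and Mmp13 has the lowest estimate with a wide interval.

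The metalloproteinases with the highest levels were measured closely. Mmp15 had 192, 155, 188 and 174 CPM in HET 1 to 4, against 187, 144, 180 and 158 CPM in WT 1 to 4. The groups overlapped throughout, and HET was 106% of WT with a 95% interval of 92.0 to 122% (log2 fold change 0.09, SE 0.0927, edgeR adjusted p = 0.862). Leaving out single libraries gave a log2 fold change of 0.021 without WT 2 to 0.15 without WT 1. Mmp2, the gelatinase that is activated at the cell surface, had 69.9, 56.5, 57.9 and 68.3 CPM in HET, against 71.7, 64.0, 56.3 and 65.8 CPM in WT. HET was 98.0% of WT, interval 85.4 to 113% (log2 fold change -0.03, SE 0.0897, adjusted p = 0.960). Mmp14, the membrane-type protease that activates Mmp2 together with Timp2, averaged 17.1 CPM in HET and 18.5 CPM in WT.

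Mmp13, a collagenase, had the lowest fold change of the tested genes and rested on a scattered WT group. It had 1.17, 1.06, 0.480 and 1.01 CPM in HET, against 1.42, 0.730, 3.75 and 1.72 CPM in WT. WT 3 was far above the rest, and the lowest WT value lay inside the HET range. HET was 48.8% of WT with an interval of 22.8 to 104% (log2 fold change -1.04, SE 0.483, unadjusted p = 0.0608, edgeR adjusted p = 0.770). Without WT 3 the log2 fold change was -0.47, and without WT 2 it was -1.30. In WT 3 the summed macrophage markers were at 227 CPM, against 155 to 174 CPM in HET and 161 to 170 CPM in the other WT libraries. Of these 6 markers, 1 was higher on average in HET and none was at 0 in all 8 libraries. In edgeR 1 of the 6 was lower in HET at an unadjusted p under 0.05, against 6.38% of all genes in either direction. The groups of 1 of the 6 were separate with HET lower, against 2.08% of all genes. None of these markers passed the adjusted threshold. Their part in the Mmp13 value was not tested.

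The other metalloproteinases overlapped between the groups. Mmp11 averaged 8.71 CPM in HET and 9.32 CPM in WT, Mmp23 7.56 and 7.89, and Mmp28 5.01 and 4.73. Mmp17 averaged 2.88 CPM in HET and 2.83 CPM in WT, and Mmp19 2.98 CPM in HET and 2.72 CPM in WT. The stromelysin Mmp3 averaged 2.15 CPM in HET and 1.93 CPM in WT. Mmp9, the gelatinase known from neutrophils and macrophages, averaged 0.720 CPM in HET and 0.590 CPM in WT, and Mmp12 averaged 0.435 CPM in HET and 0.519 CPM in WT. Mmp16 averaged 0.412 CPM in HET and 0.456 CPM in WT. Summed neutrophil markers were 2.07 to 3.28 CPM in HET and 1.40 to 4.30 CPM in WT; none of 6 was at 0 in all 8 libraries.

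All 4 inhibitors were tested. Timp4 had 37.0, 37.5, 42.4 and 37.7 CPM in HET, against 25.9, 30.0, 35.5 and 37.7 CPM in WT. The HET values were close together apart from HET 3, and only WT 4 reached into their range. The HET mean was 38.6 ± 2.55 CPM and the WT mean 32.3 ± 5.34 CPM (SD, n = 4 each), or 120% of WT with an interval of 101 to 142%. The log2 fold change was 0.26 (SE 0.109, unadjusted p = 0.0382), and edgeR's adjusted p of 0.770 missed the threshold. Cardiomyocyte markers, summed, were also higher in every HET library than in any WT library. The margin was narrow, with 58134 CPM in HET 2 against 58108 CPM in WT 2. For Timp4, leaving out single libraries gave a log2 fold change of 0.17 without WT 1 to 0.34 without WT 4. Sample titles share digits whose meaning is not stated. Among the 3 HET and 1 WT libraries of one such title group the difference of mean log2 CPM was 0.59, and among the 1 HET and 2 WT libraries of the other it was 0.03. Because bulk tissue was measured, fewer cells of a type and less RNA per cell cannot be told apart here or below.

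Timp2 was the steadiest of the tested genes, with a highest library 1.15 times its lowest. It had 108, 111, 97.8 and 112 CPM in HET, against 108, 108, 111 and 109 CPM in WT. HET was 98.6% of WT, interval 91.0 to 107% (log2 fold change -0.02, SE 0.0524, edgeR adjusted p = 0.948). Timp3, the matrix-bound inhibitor, had 199, 190, 203 and 211 CPM in HET, against 189, 265, 171 and 194 CPM in WT. WT 2 stood above the other 7 libraries, and without it the log2 fold change was 0.12 (adjusted p = 0.804), against -0.03 with it (SE 0.121, adjusted p = 0.967, HET 97.9% of WT, interval 81.0 to 118%). Timp1, the inhibitor known to be induced in inflamed and scarring tissue, had 2.12, 2.22, 1.39 and 3.40 CPM in HET, against 2.16, 2.47, 1.76 and 2.51 CPM in WT. Both the lowest and the highest of its values were in HET, the group means were 2.28 ± 0.832 CPM in HET and 2.23 ± 0.344 CPM in WT, and the interval of 70.4 to 149% of WT is wide.

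Timp1, Timp3 and Timp4 each lie within a synapsin gene on the opposite strand, and the strand setting of the counting is not given in the sources used here. Timp3 shares 1733 exon bases with Syn3, which averaged 12.4 counts a library, and Timp4 shares 90 with Syn2, which averaged 101 counts. Timp1 shares 0 exon bases with Syn1. Among other tested genes, Adamts7 shares 122 exon bases with Tbc1d2b at 907 counts and Mmp11 shares 155 with Chchd10 at 28563 counts, and without strand such reads cannot be told apart.

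**Figure D4:**
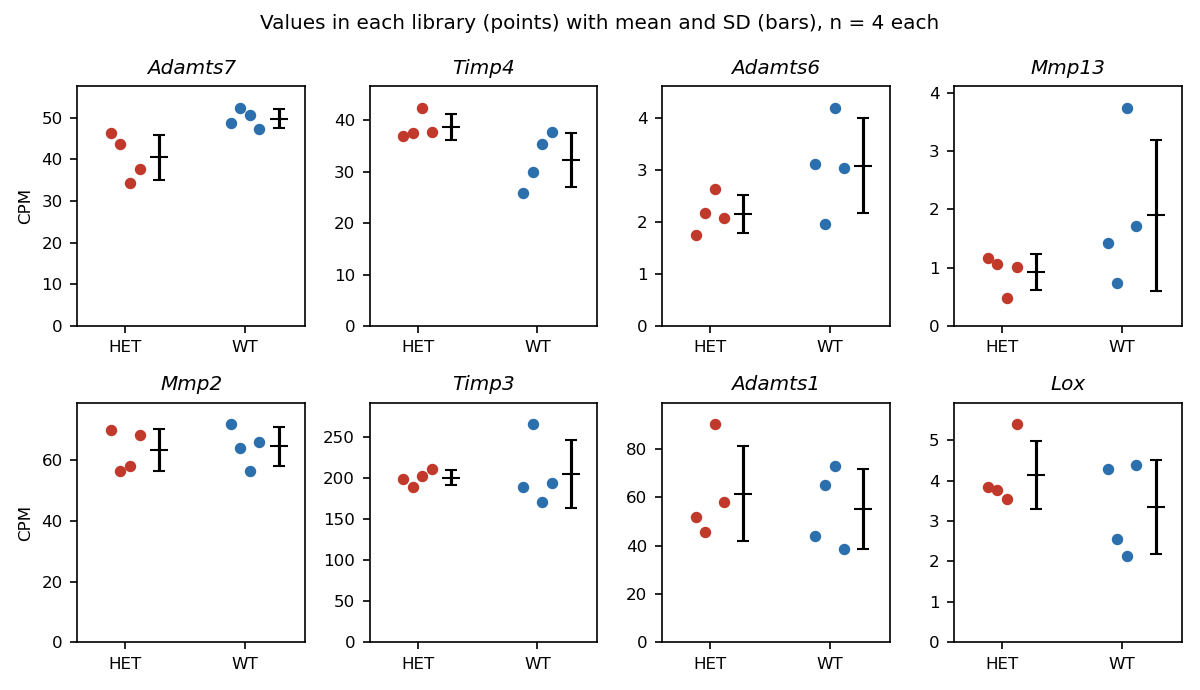
CPM in each library for 8 genes, HET left and WT right, with points for the 4 libraries and bars for mean and SD. The groups are separate only for Adamts7; Mmp13 in WT, Timp3 in WT, Adamts1 in HET and Lox in HET each have 1 library well above the others.

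Among the ADAMTS genes, Adamts7, a protease of cartilage oligomeric matrix protein that is expressed in vessel walls, was the gene with separate groups. It had 46.2, 43.7, 34.4 and 37.7 CPM in HET, against 48.7, 52.3, 50.7 and 47.1 CPM in WT. The highest HET value lay just under the lowest WT value. HET averaged 40.5 ± 5.40 CPM and WT 49.7 ± 2.27 CPM (SD, n = 4 each), or 81.4% of WT with an interval of 71.4 to 93.0%. The log2 fold change was -0.30 (SE 0.0863, unadjusted p = 0.00592), which missed the threshold after adjustment in edgeR (0.770). It was -0.37 to -0.22 when single libraries were left out, -0.31 within the title group of 3 HET and 1 WT libraries and -0.16 within that of 1 HET and 2 WT libraries. Summed mural cell markers were 906 to 1036 CPM in HET and 914 to 1076 CPM in WT; 3 of 6 were higher on average in HET and none at 0 in all 8 libraries.

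Adamts6, known from mouse heart development, had 1.75, 2.18, 2.64 and 2.08 CPM in HET, against 3.12, 1.96, 4.20 and 3.05 CPM in WT. The WT 2 value lay inside the HET range and WT 3 was the highest. HET was 70.1% of WT, interval 49.9 to 98.4% (log2 fold change -0.51, SE 0.221, unadjusted p = 0.0415, edgeR adjusted p = 0.770). The log2 fold change was -0.33 without WT 3 and -0.68 without WT 2. Adamts9, a versican protease, had 25.1, 26.0, 23.7 and 25.7 CPM in HET, against 32.3, 23.9, 31.1 and 27.0 CPM in WT. Its HET values spanned little, the WT 2 value lay among them and the other WT values lay above them. HET was 87.9% of WT, interval 76.6 to 101% (log2 fold change -0.19, SE 0.0896, edgeR adjusted p = 0.770). The log2 fold change was -0.12 without WT 1 and -0.26 without WT 2. Adamts20, a gene named in mouse for a coat pigment mutant, had 0.397, 0.468, 0.426 and 0.674 CPM in HET, against 1.01, 0.478, 0.483 and 0.743 CPM in WT. Its log2 fold change was -0.47 (SE 0.31, edgeR adjusted p = 0.773), -0.20 without WT 1 and -0.65 without HET 4.

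Adamts1 varied more within groups than between them. It had 51.9, 45.7, 90.1 and 58.2 CPM in HET, against 44.1, 64.8, 72.9 and 38.7 CPM in WT. HET 3 was the highest of the 8 libraries and WT 4 the lowest. The log2 fold change was 0.16 (SE 0.292, edgeR adjusted p = 0.925) with HET at 112% of WT, interval 68.8 to 181%, and it was -0.08 without HET 3, 0.02 without WT 4 and 0.32 without WT 3. Adamts1 lies on chromosome 16, as Pkp2 does, 69.52 Mb away, and next to Adamts5 within 108.002 kilobases. Adamts5, an aggrecanase, averaged 26.2 CPM in HET and 27.0 CPM in WT.

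The remaining ADAMTS genes had similar group means. The procollagen N-proteinases Adamts2, Adamts3 and Adamts14 averaged 31.9, 7.31 and 2.97 CPM in HET, against 30.8, 6.75 and 2.89 CPM in WT. Adamts10, a protease tied to fibrillin microfibrils, averaged 49.5 CPM in HET and 51.1 CPM in WT. Adamts15 averaged 11.3 CPM in HET and 11.8 CPM in WT. Adamts8, its neighbour on chromosome 9, averaged 1.24 CPM in HET and 1.03 CPM in WT. Adamts17 averaged 1.47 CPM in HET and 1.76 CPM in WT, and Adamts12 1.32 CPM in HET and 1.39 CPM in WT. Adamts19 averaged 0.860 CPM in HET and 0.847 CPM in WT. Adamts4, an aggrecanase, averaged 2.47 ± 0.502 CPM in HET and 2.64 ± 1.42 CPM in WT, where single libraries ran from 0.881 to 4.11 CPM.

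The lysyl oxidases divided by sign without passing a test. Lox, the founding member, had 3.84, 3.78, 3.55 and 5.39 CPM in HET, against 4.28, 2.57, 2.13 and 4.38 CPM in WT. WT 2 and WT 3 lay below every HET value, and WT 1 and WT 4 lay among them. HET averaged 4.14 ± 0.844 CPM and WT 3.34 ± 1.16 CPM, a log2 fold change of 0.31 (SE 0.245, edgeR adjusted p = 0.804), and the estimate was 0.14 without WT 3, 0.16 without HET 4, 0.20 without WT 2 and 0.47 without WT 4. With the title digits as covariate it was 0.095, and the difference was -0.03 within the title group of 3 HET and 1 WT libraries and 0.31 within the other. Loxl1 had 60.1, 58.0, 46.6 and 60.2 CPM in HET, against 61.5, 56.5, 53.7 and 69.6 CPM in WT. HET was 93.2% of WT, interval 79.8 to 109% (log2 fold change -0.10, SE 0.10, adjusted p = 0.842), and HET 3 held the lowest value. Its log2 fold change was -0.021 without HET 3 and -0.026 without WT 4.

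Loxl2, which cross-links basement membrane collagen, had 22.9, 19.9, 16.6 and 22.4 CPM in HET, against 23.1, 24.2, 20.98 and 24.6 CPM in WT. HET 1 and HET 4 lay inside the WT range and the other HET values lay below it. HET was 88.1% of WT, interval 75.6 to 103% (log2 fold change -0.18, SE 0.0996, edgeR adjusted p = 0.770). The log2 fold change was -0.09 without HET 3 and -0.24 without HET 1. Loxl3 had 6.20, 5.49, 6.10 and 7.13 CPM in HET, against 7.74, 6.44, 6.57 and 7.04 CPM in WT. HET was at 89.7% of WT, interval 76.3 to 105% (edgeR adjusted p = 0.775). The log2 fold change was -0.16, -0.098 without WT 1 and -0.22 without HET 4. Loxl4 had 1.67, 1.03, 1.68 and 1.01 CPM in HET, against 1.59, 1.31, 1.23 and 1.18 CPM in WT, with HET at 102% of WT, interval 72.6 to 143% (adjusted p = 0.987). The HET libraries held both the highest and the lowest Loxl4 values. Summed fibroblast markers, for the cells best known for making these enzymes, were 1840 to 2097 CPM in HET and 1922 to 2127 CPM in WT; 1 of 7 was higher on average in HET and none at 0 in all 8 libraries.

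Family totals were close between groups. Summed per kilobase, metalloproteinases reached 65.4 ± 4.996 CPM per kilobase in HET and 64.6 ± 5.61 in WT, and TIMPs 61.3 ± 2.59 in HET and 61.1 ± 4.97 in WT (SD, n = 4 each). ADAMTS genes summed to 36.0 ± 2.81 CPM per kilobase in HET and 36.8 ± 2.44 in WT, and lysyl oxidases to 23.4 ± 2.60 in HET and 25.1 ± 2.61 in WT. The ratio of Mmp2 to Timp2 level per kilobase was 0.681 ± 0.0683 in HET and 0.685 ± 0.0769 in WT, and that of Mmp14 to Timp2 was 0.104 ± 0.00361 in HET and 0.111 ± 0.0198 in WT. Timp1 to Timp3 gave 0.104 ± 0.0348 in HET and 0.101 ± 0.0142 in WT. The level of Loxl1 was 20.04 ± 3.03 times that of Lox in HET and 28.1 ± 7.43 times in WT, with single libraries at 16.2 to 22.7 in HET and 20.8 to 36.6 in WT. These ratios were not tested.

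**Figure D5:**
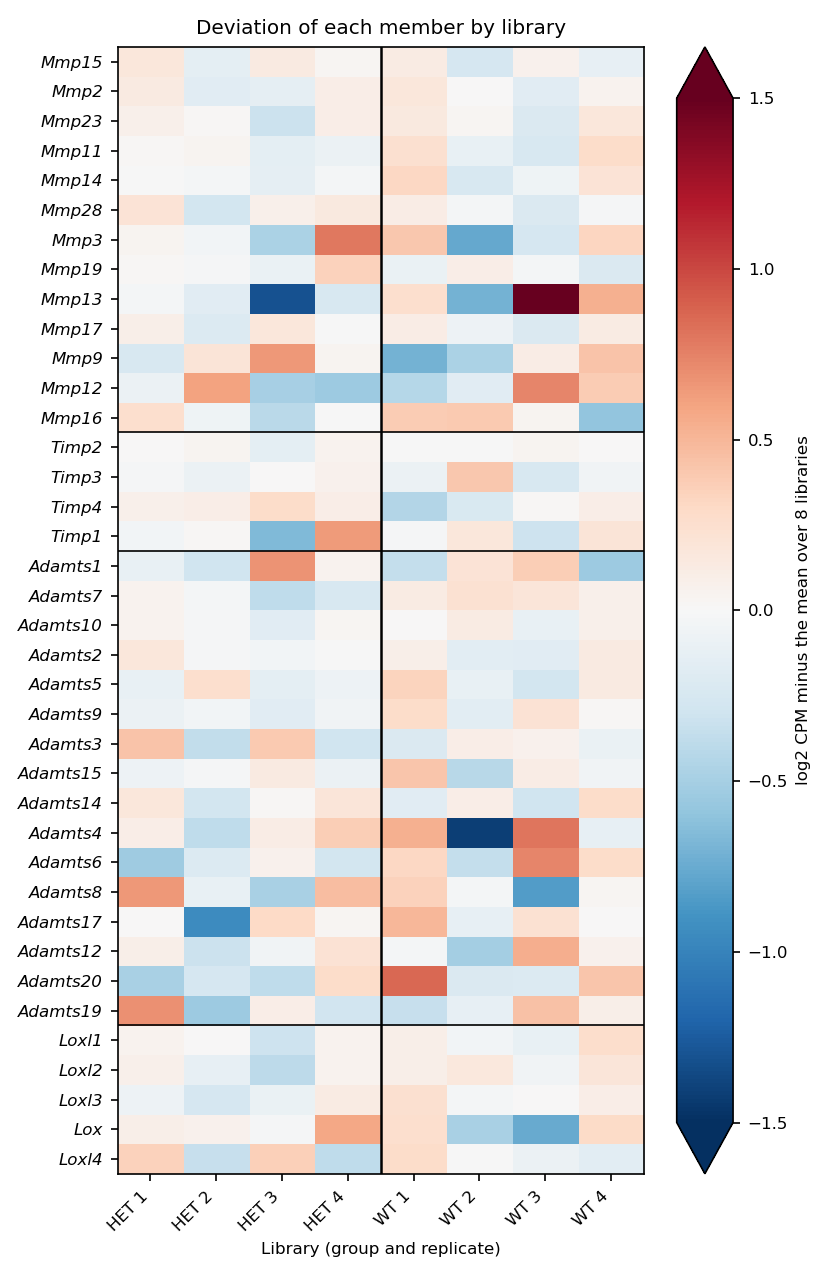
Deviation of log2 CPM from the gene's mean over the 8 libraries, for the 38 tested genes (rows, by family) in each library (columns, HET left of the line and WT right of it), red above and blue below the mean. The strongest colours are in single libraries, such as Mmp13 in HET 3 and WT 3 and Adamts4 in WT 2, and no family forms a block that follows genotype.

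Some libraries stood at the extremes of many genes. WT 1 held the highest value of 8 of the 38 genes (21.1%, against 11.3% of all genes). HET 2 held the highest of 0, against 10.8% of all genes, and the lowest of 5. HET 3 and WT 3 each held the lowest of 9. The share of all genes that were lowest in each library was not computed. Mmp13 spread most, with a highest library 7.81 times its lowest, and Adamts4 spread 4.67 times. Of counts, 14.7% were mitochondrial in WT 3, against 17.1 to 19.1% in the other libraries. Summed adipocyte markers were 0.646 to 6.77 CPM in HET and 0.529 to 1.45 CPM in WT. Of 5 markers, 4 were higher on average in HET, and Lep was at 0 in every library. The 3 tested had log2 fold changes of 1.55 to 2.06. In edgeR 2 of these had an unadjusted p under 0.05, against 6.38% of all genes, and none passed the adjusted threshold. The sum was highest in HET 3 and next in HET 1 at 5.54 CPM, while HET 4 lay inside the WT range. Summed endothelial markers were 937 to 1064 CPM in HET and 917 to 1155 CPM in WT. The part of these differences in the values above was not tested.

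Genes that work with these enzymes were read from 7 lists, and none of their tested genes passed the threshold. Of 9 activators and receptors, 5 had positive and 4 negative log2 fold changes (median 0.04). Plat, tissue plasminogen activator, averaged 19.5 ± 1.09 CPM in HET and 23.0 ± 1.97 CPM in WT. Its log2 fold change was -0.23 (SE 0.0737, edgeR adjusted p = 0.770). Plau, urokinase, averaged 6.40 ± 1.05 CPM in HET and 8.47 ± 1.081 CPM in WT, at -0.40 on the log2 scale (SE 0.134) with the same adjusted p. In this list 3 of 9 genes, Plat, Plau and Cd44, had an unadjusted p under 0.05 in edgeR, against 6.38% of all genes in either direction. All 3 were lower in HET. The groups of 2 of the 9, Plau and Cd44, were separate with HET lower, against 2.08% of all genes. Cd44, a hyaluronan receptor named after its values were seen, averaged 9.27 ± 0.499 CPM in HET and 11.2 ± 2.03 CPM in WT (adjusted p = 0.770). Of 9 tested inhibitors outside the TIMP family, 3 were positive and 6 negative (median -0.05); A2m, a broad protease trap, averaged 0.483 ± 0.159 CPM in HET and 0.305 ± 0.101 CPM in WT, and Tfpi2 averaged 0.923 ± 0.158 CPM in HET and 1.11 ± 0.0799 CPM in WT. Of 12 other metalloproteases, 7 were positive and 5 negative (median 0.03). Adam15 averaged 90.7 ± 2.15 CPM in HET and 96.5 ± 3.88 CPM in WT. Tll2, a tolloid-like protease, averaged 0.738 ± 0.189 CPM in HET and 1.01 ± 0.237 CPM in WT. Of 5 ADAMTS-like genes, which lack the protease domain, 3 were positive and 2 negative; Adamtsl2 averaged 25.1 ± 6.85 CPM in HET and 19.9 ± 4.04 CPM in WT, and Adamtsl3 averaged 5.29 ± 0.582 CPM in HET and 5.92 ± 1.09 CPM in WT.

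The lists of matrix substrates and of their processing held signs in both directions as well. Of 16 tested collagen modification genes, 8 were positive and 8 negative (median 0.02). P4ha2, a collagen prolyl hydroxylase subunit, averaged 74.7 ± 3.38 CPM in HET and 66.9 ± 3.68 CPM in WT, at 0.16 on the log2 scale (SE 0.0545, edgeR adjusted p = 0.770), and Crtap averaged 23.8 ± 2.85 CPM in HET and 27.1 ± 1.98 CPM in WT. Of 12 elastic fibre genes, 6 were positive and 6 negative. The microfibril genes Mfap2 and Mfap5 averaged 1.56 ± 0.316 and 21.4 ± 3.49 CPM in HET, against 2.09 ± 0.328 and 24.3 ± 3.91 CPM in WT. Of 16 substrates, 7 were positive and 9 negative (median -0.03). Sparc, a collagen-binding matrix protein, averaged 527 ± 35.6 CPM in HET and 589 ± 54.2 CPM in WT, and Lama2, the laminin chain of the muscle basement membrane, averaged 126 ± 5.59 CPM in HET and 118 ± 4.61 CPM in WT (SD, n = 4 each throughout).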

How the data were processed

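Stranded poly(A) libraries from 8 ventricle samples were analysed. Per the submitters' processing notes, the authors used STAR 2.4.2a and HTSeq 0.6.1 with GRCm38/mm10, and the deposited values are raw read counts per gene; the annotation release and strand setting are not given in the sources used here. Genotype labels gave the groups, and replicates were numbered in accession order. Symbols came from GENCODE M21; 1948 genes without a symbol held 0.143% of counts. Within groups, pairs of libraries differed by far more than sampling noise (mean chi-square at least 13.99 over genes with 100 or more counts).

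Counts were tested with edgeR 4.0.16 in R 4.3.3: filterByExpr (14567 genes), TMM scaling, a robust quasi-likelihood fit without covariate, and Benjamini-Hochberg adjustment over all tested genes at 0.05. Intervals are 95% intervals, and the common coefficient of biological variation was 0.143. CPM use TMM-scaled library sizes; levels per kilobase use the exon union. Scripts were tested on simulated data. Total counts were lower in HET (exact two-sided permutation p = 0.0571). Alternatives were other scalings and filters, DESeq2 1.42.0, limma-voom (limma 3.58.1), the title digits as covariate and leaving out each library. Genes given with every sample's values are Mmp2, Timp1, Lox, the 2 of highest level per family, every tested Timp and lysyl oxidase gene, the 8 of smallest p and any with separate groups; in partner lists, the 2 of smallest p. Genes and lists were chosen with earlier results of these data known.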

Additional observations from a re-analysis of the deposited data

Results flagged for a closer look

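In 3 of 34 groups of 4 values checked, the highest or lowest library stood apart from the other 3 by more than Dixon's 95% critical value for the gap relative to the group's range; chance gives about 1 in 20. Lox in HET 4 was at 5.39 CPM, against 3.55 to 3.84 CPM in the other HET libraries. Loxl1 in HET 3 was at 46.6 CPM, against 58.0 to 60.2 CPM in the other HET libraries. Timp4 in HET 3 was at 42.4 CPM, against 37.0 to 37.7 CPM in the other HET libraries.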

How the results depend on the processing

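No paired analysis was possible because the replicates were numbered in accession order and the labels give the groups no shared replicate numbers. Over 15 alternatives, which tested 33 to 46 of the 51 genes, 0 were called, and their median log2 fold change was -0.09 to 0.01. Pkp2 was called in each (log2 fold change -0.79 to -0.70). Over all genes, 2 were called without a filter on low counts, 13 with DESeq2, and 1 to 3 when single libraries were left out, with 3 without HET 3. Of 254 values of the 17 genes given by sample, 236 kept their sign and 18 changed it, in 7 genes. With library-size scaling, Timp1 was at -0.0051 and Loxl4 at -0.016, and with limma-voom Timp1 was at -0.026. With the title digits as covariate, Mmp15 was at -0.0673, Timp3 at 0.0851, Loxl4 at -0.17 and Adamtsl3 at 0.0126. When single libraries were left out, Timp1 ran from -0.22 to 0.21, Timp2 from -0.0386 to 0.0220, Timp3 from -0.11 to 0.12, Mmp2 from -0.0905 to 0.0293, Adamts1 from -0.0849 to 0.32 and Loxl4 from -0.10 to 0.15. The causes were not tested. Differences smaller than a gene's interval were not detectable here, and larger ones could also miss the adjusted threshold. The 95% intervals are not adjusted: those of Adamts7, Adamts6 and Timp4 did not hold 0, and edgeR's adjusted p was 0.770 for each. Of the 13 genes under the count filter, 5 had 0 counts in every library.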

Other observations

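The sample titles hold digits whose meaning the labels do not give. 1 set of digits is on 3 HET and 1 WT libraries, another on 1 HET and 2 WT, and the last on 1 WT. That last library is WT 2. A covariate of digits fits it alone, so it adds nothing to the difference between HET and WT. The difference then rests on the few libraries of the other sets. With these digits as a covariate in edgeR's quasi-likelihood test, 8 of the 38 genes had an unadjusted p under 0.05, against 4.95% of all genes and against 3 of the 38 without the covariate. Of these 8, 7 were lower in HET: Adamts9 (log2 fold change -0.28, unadjusted p = 0.00766), Adamts6 (-0.63), Adamts17 (-0.67), Mmp14 (-0.24), Loxl3 (-0.28), Mmp13 (-0.998) and Adamts20 (-0.76). Timp4 was higher (0.33). Adamts7 was not among them and stood at -0.24. The adjusted p of all 8 was 0.966, so no call was made, and these genes were named after their values were seen.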
